A study of Mus musculus with 3 samples.

Results

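The genes described here are the fibroblast growth factor (FGF) ligands, their receptors and the feedback genes that FGF signalling switches on, in RNA of mouse skull mesenchyme at E15.5. They were chosen by symbol: every Fgf gene with a number, Fgfr1 to Fgfr4, Fgfrl1, and the feedback genes Spry1, Spry2, Spry4, Spred1, Spred2, Dusp6, Etv4 and Etv5. The rule found 35 of the 43280 genes listed, namely 22 ligand genes, 5 receptors and 8 feedback genes. Measured here means a mean over the libraries of 5 or more CPM, which are counts scaled to a common library size. By that rule 18 of the 35 genes were measured, against 12127 of all genes: 5 ligand genes, all 5 receptors and all 8 feedback genes.

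The study compared skeletal mesenchyme, described by the series as calvarial and labelled as primary cells, from embryos that differed at Ctnnb1, the beta-catenin gene. The dTF-cKO library was beta-catenin fx/dm with Dermo1-Cre, the cKO library was beta-catenin fx/fx with Dermo1-Cre, and the control library was beta-catenin fx/fx without Cre. Dermo1-Cre is active in mesenchyme, where the Twist2 locus drives it. What dm stands for is not said in the labels; the double mutant Ctnnb1 allele known by those letters encodes a beta-catenin that still works at cell contacts but cannot drive transcription. All 3 libraries carried at least 1 floxed allele, and no library was fx/dm without Cre. Each genotype had 1 library, so nothing below is replicated, no p-value was computed, and each comparison describes libraries, not genotypes.

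Secreted FGFs bind receptor tyrosine kinases together with heparan sulphate, and the activated receptors signal largely through RAS and ERK. ERK induces its own brakes, among them the Sprouty and Spred proteins and the ERK phosphatase DUSP6, as well as the PEA3 transcription factors ETV4 and ETV5, so these genes are commonly used as readouts of the pathway. In the developing skull FGF18 is made by bone-forming cells, and FGFR1, FGFR2 and FGFR3 act in osteoblasts and their progenitors. FGF7 and FGF10 are made by mesenchyme and act on the epithelial splice form of FGFR2, while the FGF11 subfamily stays inside the cell and FGF21 acts as a hormone.

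The promoters of 4 genes are shown because large ligand and receptor differences fell on them. Fgf18 had no counts in the dTF-cKO, Fgf11 was the measured ligand gene that was at least 2-fold higher there, Fgf21 had most of its counts there, and Fgfrl1 was lower there and holds an ETS motif. Each runs from 250 bases before to 50 bases after the annotated start, 5′ to 3′ on the gene's strand, from RefSeq on GRCm38.p6, the build also called mm10. Gene coordinates in this report come from another annotation, GENCODE, whose starts differ for Fgf11 and Fgfrl1. The Fgf11 window lies wholly upstream of the GENCODE gene (chr11:69796068-69801857). The Fgfrl1 window lies inside the GENCODE gene (chr5:108692382-108706924). The regions are chr11:33147351-33147650 (minus strand) for Fgf18, chr11:69802231-69802530 (minus strand) for Fgf11, chr7:45615441-45615740 (minus strand) for Fgf21 and chr5:108693979-108694278 (plus strand) for Fgfrl1. Capitals mark a match to a searched motif.
Fgf18: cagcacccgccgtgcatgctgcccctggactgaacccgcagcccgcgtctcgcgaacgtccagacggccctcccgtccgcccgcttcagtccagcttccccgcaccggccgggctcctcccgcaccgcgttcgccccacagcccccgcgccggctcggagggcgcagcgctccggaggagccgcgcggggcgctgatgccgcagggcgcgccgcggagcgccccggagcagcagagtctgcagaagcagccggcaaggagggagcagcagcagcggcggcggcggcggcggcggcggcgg
Fgf11: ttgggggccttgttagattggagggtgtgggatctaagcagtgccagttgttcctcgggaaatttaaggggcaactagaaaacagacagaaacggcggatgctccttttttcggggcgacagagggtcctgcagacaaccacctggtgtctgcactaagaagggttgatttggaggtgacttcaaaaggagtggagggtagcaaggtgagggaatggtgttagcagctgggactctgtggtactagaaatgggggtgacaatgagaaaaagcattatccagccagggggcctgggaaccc
Fgf21: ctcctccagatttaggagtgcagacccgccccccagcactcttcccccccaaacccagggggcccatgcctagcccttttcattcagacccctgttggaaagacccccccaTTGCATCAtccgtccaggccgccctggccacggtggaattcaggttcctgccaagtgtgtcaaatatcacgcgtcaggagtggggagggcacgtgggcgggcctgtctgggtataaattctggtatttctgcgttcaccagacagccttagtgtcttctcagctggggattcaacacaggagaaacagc
Fgfrl1: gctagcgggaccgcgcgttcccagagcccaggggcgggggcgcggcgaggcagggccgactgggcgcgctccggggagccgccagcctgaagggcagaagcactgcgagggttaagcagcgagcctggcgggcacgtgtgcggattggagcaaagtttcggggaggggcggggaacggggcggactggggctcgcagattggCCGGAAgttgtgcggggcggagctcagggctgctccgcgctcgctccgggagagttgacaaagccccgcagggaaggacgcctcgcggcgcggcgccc

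Promoters were at hand for 26 of the 35 genes, 15 of them measured, and the first one listed for each gene was searched on both strands. Matches to different motifs did not overlap. The TCF/LEF core CTTTGA, bound by the factors that partner beta-catenin, was in 3 of the 26 (Fgf3, Fgf6 and Fgf23) and in none of the 15 measured genes, against 16.2% of 27025 genes. The ETS core CCGGAA is of the kind bound by ETV4 and ETV5. It was in 4 of the 26 (Fgf5, Fgfr4, Fgfrl1 and Spry2) and in 3 of the 15 measured genes, against 15.2% of genes. The match in Fgfrl1, shown above in capitals, lay 48 bases before the start. That in Fgfr4, also lower in the dTF-cKO but not printed, lay 178 bases before its start. The amino acid response motif TGATGNAA, searched because of the values of Fgf21 and after they were seen, was in 1 of the 26, Fgf21 itself, against 4.06% of genes. There the match lay on the opposite strand, 139 bases before the start, and reads TTGCATCA on the printed strand. A match is a run of letters in this window and was not tested as a binding site.

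The libraries held 2905264 counts for the dTF-cKO, 2678457 for the cKO and 3634819 for the control, and a count of 0 allows up to 3 counts, or 1.07, 1.06 and 0.839 CPM in that order. Ctnnb1 stood at 442, 745 and 1026 CPM in the same order, with reads of the floxed, recombined and dm alleles not separated. Counts of Twist2, where the Cre sits, were 35, 80 and 21. Xist, the RNA of the inactive X chromosome, had 2, 0 and 1233 counts, so sex-linked expression and the presence of Cre cannot be told apart. The libraries also differed in marker sums of other cell types. Epidermal markers (20 genes, led by Krt5 and Krt14) summed to 14225 CPM in the dTF-cKO, 25734 CPM in the cKO and, in the control, 165 CPM, where Ivl, Flg, Dsg1a and Grhl3 had no counts; Flg also had none in the Cre-carrying libraries. Osteoblast markers (21 genes, led by Runx2 and Sp7) summed to 10781, 44139 and 198826 CPM in the same order, with Mepe at 0 in both Cre-carrying libraries and Panx3 at 0 in the dTF-cKO. Of the defining bone markers, Runx2 had 62 counts in the dTF-cKO, 121 in the cKO and 512 in the control, and Sp7 had 2, 153 and 1092. Dermis and fascia markers (20 genes) summed to 8330, 19455 and 27020 CPM, with Pi16 at 0 in the dTF-cKO, and skeletal muscle markers (20 genes) to 15.4, 334 and 2142 CPM, with Myod1, Myog, Myf5, Myf6, Pax7, Ckm and Tnnc1 at 0 in the dTF-cKO and Myf6 at 0 in the cKO. The other lists summed, in the same order, to 15980, 5460 and 6550 CPM for red cells (10 genes), 381, 706 and 402 CPM for macrophages (15 genes), 82.5, 190 and 47.3 CPM for melanocytes (7 genes), 7530, 6635 and 7649 CPM for meninges (12 genes) and 1607, 1264 and 1096 CPM for smooth muscle and pericytes (12 genes). For meninges and for smooth muscle and pericytes the sums hide how most single genes behaved. Comparing the dTF-cKO with the control, median log2 differences were -2.31 across the meninges genes and -2.09 across the smooth muscle and pericyte genes. Of 12 meninges genes, 9 stood at least 2-fold below the control and 1 above it. Of 12 smooth muscle and pericyte genes, 7 stood below it by that margin and 3 above. The part of cell makeup in the FGF results was not tested. In bulk RNA, fewer cells of a type and less RNA per cell cannot be told apart.

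Levels are CPM scaled with TMM factors, and an alternative, called the stroma scaling here, equalises 60 genes of endothelium, vessel wall, meninges and dermis with 1 factor per library. It moved the median log2 difference of all genes to 1.71 for the dTF-cKO against the control and to 1.69 against the cKO, and to 0.03 for the cKO against the control. Differences that involve the dTF-cKO therefore depend on the scaling, and shares and ratios within a library, which no scaling alters, are given beside them. Of the 18 measured genes, 11 reached 5 CPM in every library, Etv4 reached it only in the dTF-cKO and Fgf18 only in the control. Fgf7, Fgf10, Fgf13, Fgfr4 and Spry4 were below it in the dTF-cKO alone. So 6 of the 9 genes called lower in the dTF-cKO passed the floor through libraries where they are high, and counts over the measured genes describe a set that the floor itself shaped.

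Between the dTF-cKO and the control, 9 of the 18 measured genes were lower in the dTF-cKO by 2-fold or more and 1 was higher, on the log2 scale with a prior count of 2. The lower ones were Fgf18, Fgf7, Fgf10, Fgf13, Fgfr1, Fgfr4, Fgfrl1, Spry4 and Etv5, and the higher one was Fgf11. The same rule called 20.9% of all measured genes lower and 19.5% higher. The median log2 difference of the 18 genes was -1.02 (-1.04 with Fgf18 at its bound), against 0.06 for all measured genes. Under the stroma scaling the split turned to 4 lower and 8 higher, with a median of 0.64, while 71.7% of all genes were then at least 2-fold higher and 5.98% lower. Between the cKO and the control, 1 gene was at least 2-fold higher in the cKO (Fgf7) and 1 at least 2-fold lower (Fgf18), against 9.66% and 6.78% of all measured genes, and the median was -0.09, against 0.06. Between the dTF-cKO and the cKO, 9 genes were lower in the dTF-cKO by that rule and 2 were higher, against 20.5% and 14.5% of all measured genes, with a median of -1.12 against 0.01. The stroma scaling turned that split to 3 lower and 6 higher, while 5.48% of all genes were then lower and 71.7% higher.

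**Figure D1:**
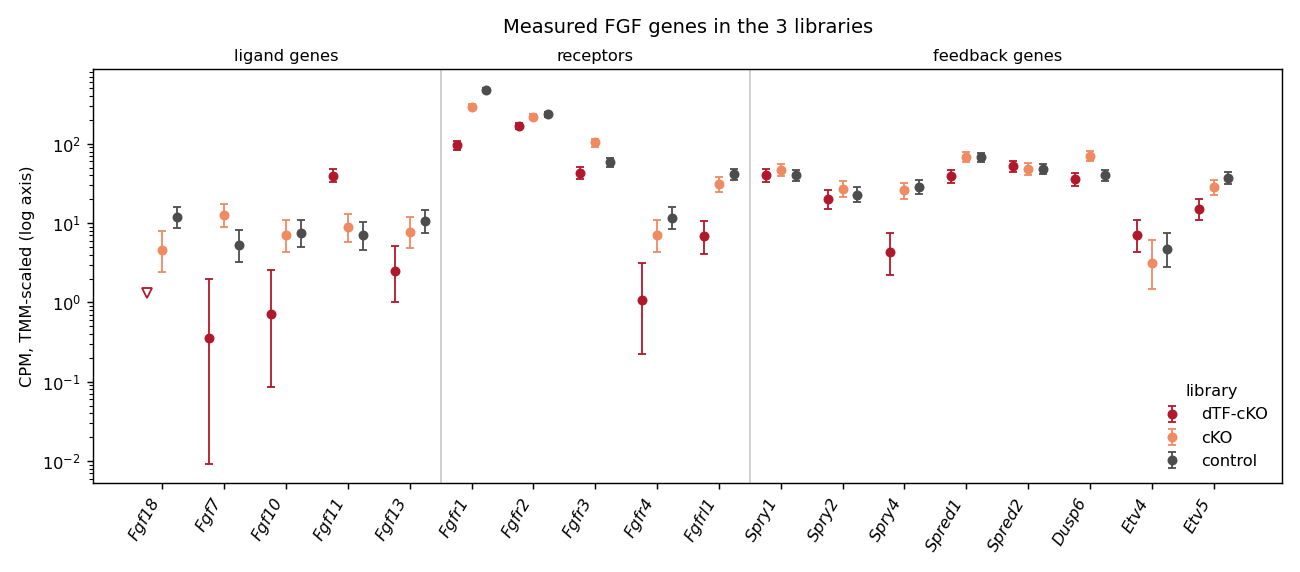
TMM-scaled CPM (log axis) of the 18 measured genes in the dTF-cKO, cKO and control libraries, left to right for each gene; points are single libraries, bars are exact 95% counting intervals, and the open triangle marks the upper limit of a library with 0 counts. Fgfr1 stood at 95.8, 294 and 482 CPM, while Spry1 stood at 40.0, 47.0 and 40.3 CPM.

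The secreted ligands that act between neighbouring cells had few counts in the dTF-cKO library. The 15 paracrine ligand genes together had 9 counts there, 119 in the cKO and 133 in the control, or 3.22, 42.1 and 37.2 CPM. The sum was 11.6-fold lower in the dTF-cKO than in control (95% counting interval 5.91 to 25.9). It made up 6.08% of the counts of all 22 ligand genes in the dTF-cKO, against 66.5% in the cKO and 60.2% in the control, a share that no scaling alters. Fgf11 with 111 counts and Fgf21 with 21 made up most of the 148 ligand counts of the dTF-cKO, so the share reflects their counts too. Without Fgf11, the paracrine genes held 9 of 37 counts (24.3%, 95% exact interval 11.8 to 41.2) in the dTF-cKO, 119 of 154 (77.3%) in the cKO and 133 of 196 (67.9%) in the control. Fgf21 made up 21 of those 37 counts, against 0 of 154 in the cKO and 3 of 196 in the control. This share too therefore reflects Fgf21, and it does not show by itself that the paracrine genes were lower.

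Fgf18, the ligand made by bone-forming cells (chr11:33117430-33147400, minus strand), had 0 counts in the dTF-cKO, 13 in the cKO and 43 in the control. Its level was 4.6 CPM in the cKO and, in the control, 12.03 CPM. The libraries stood in the order dTF-cKO, cKO and control, lowest first. Against a floor of 3 counts per library, Fgf18 was at least 11.2-fold lower in the dTF-cKO than in control and at least 4.29-fold lower than in the cKO. In the cKO it was 2.62-fold lower than in control (1.38 to 5.30). With the stroma scaling the same floor gave at least 3.46-fold lower than in control and at least 1.3-fold lower than in the cKO. The osteoblast marker sums given above stood in the same order, and their part in the Fgf18 values was not tested.

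Fgf7, a mesenchymal ligand of epithelial receptors, had 1 count in the dTF-cKO, 36 in the cKO and 19 in the control. It was the measured ligand gene that was higher in the cKO than in control and lower in the dTF-cKO than in either. The cKO level of 12.7 CPM was 2.40-fold that of the control, 5.31 CPM (1.34 to 4.42). In the dTF-cKO it was 14.9-fold lower than in control (2.36 to 618) and 35.6-fold lower than in the cKO (6.002 to 1446), wide intervals that follow from the single count. Fgf10, of the same subfamily, had 2 counts in the dTF-cKO, 20 in the cKO and 27 in the control, with an antisense transcript (Gm16263) overlapping 123 of its exonic bases. It was 10.6-fold lower in the dTF-cKO than in control (2.66 to 91.7), while its ratio of the cKO to the control was 0.937 (0.498 to 1.73). The stroma scaling put the log2 differences of the dTF-cKO from the control at -1.63 for Fgf7 and -1.42 for Fgf10.

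Among the paracrine ligands below the floor, 4 had more than 3 counts in a library. Fgf1, a broadly acting ligand without a signal peptide, had 1 count in the dTF-cKO, 26 in the cKO and 10 in the control. Its cKO count was 3.29-fold that of the control after scaling (1.53 to 7.64). Fgf2, of the same subfamily, had 0, 9 and 15 counts, and its exons overlap those of Nudt6 on the other strand. It was at least 3.91-fold lower in the dTF-cKO than in control. Fgf9, which signals from epithelium and mesenchyme in several organs, had 4, 7 and 9 counts, and the interval of each of its ratios included 1. Fgf16 had 0, 1 and 4 counts, too few for a comparison. The remaining paracrine genes stayed at or below 3 counts in every library.

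The FGF11 subfamily differed unevenly. These 4 proteins, Fgf11 to Fgf14, lack a signal peptide, bind sodium channels in neurons and do not act through the usual receptors. Fgf11 (chr11:69796068-69801857, minus strand) had 111 counts in the dTF-cKO, 25 in the cKO and 25 in the control. The cKO and the control hardly differed, with a ratio of 1.26 (0.697 to 2.29). The dTF-cKO level of 39.7 CPM was 5.67-fold that of the control, 6.99 CPM (3.65 to 9.14), and 4.48-fold that of the cKO, 8.84 CPM (2.89 to 7.23). Fgf11 ranked above 94.4% of all measured genes by its log2 difference from the control. It alone held 75.0% of all ligand gene counts in the dTF-cKO (67.2% to 81.7%), against 14.0% in the cKO and 11.3% in the control. The 4 genes of the subfamily held 79.7%, 32.4% and 38.0% in the same order.

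Fgf13 and Fgf12 went the other way. Fgf13, on the X chromosome, had 7 counts in the dTF-cKO, 22 in the cKO and 38 in the control. It was 4.25-fold lower in the dTF-cKO than in control (1.87 to 11.3), with a log2 difference of -0.36 under the stroma scaling, and its ratio of the cKO to the control was 0.732 (0.412 to 1.27). Fgf12, below the floor, had 0, 10 and 18 counts and was at least 4.70-fold lower in the dTF-cKO than in control. Markers of neurons and glia (15 genes, led by Tubb3 and Elavl3) summed to 90.4 CPM in the dTF-cKO, 177 CPM in the cKO and, in the control, 310 CPM, with Elavl4 at 0 in the dTF-cKO. Their part in the Fgf12 and Fgf13 values was not tested.

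The endocrine ligands were led by Fgf21 (chr7:45613886-45615490, minus strand), a hormone that many cell types also make under nutrient and endoplasmic reticulum stress. Fgf21 had 21 counts in the dTF-cKO, 0 in the cKO and 3 in the control, or 7.5, 0 and 0.839 CPM, and was below the floor. It was 8.94-fold higher in the dTF-cKO than in control (2.67 to 46.8) and at least 7.07-fold higher than in the cKO. The endocrine genes held 14.2% of ligand gene counts in the dTF-cKO, 1.12% in the cKO and 1.81% in the control. Atf4, the stress-induced factor that binds the amino acid response motif shown above in the Fgf21 promoter, was looked at because of the Fgf21 values. It had 1279 counts in the dTF-cKO, 448 in the cKO and 604 in the control, and was 2.70-fold higher in the dTF-cKO than in control (2.45 to 2.98). Its part in the Fgf21 values was not tested. Fgf15 and Fgf23, the remaining endocrine genes, had at most 1 count in any library.

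**Figure D2:**
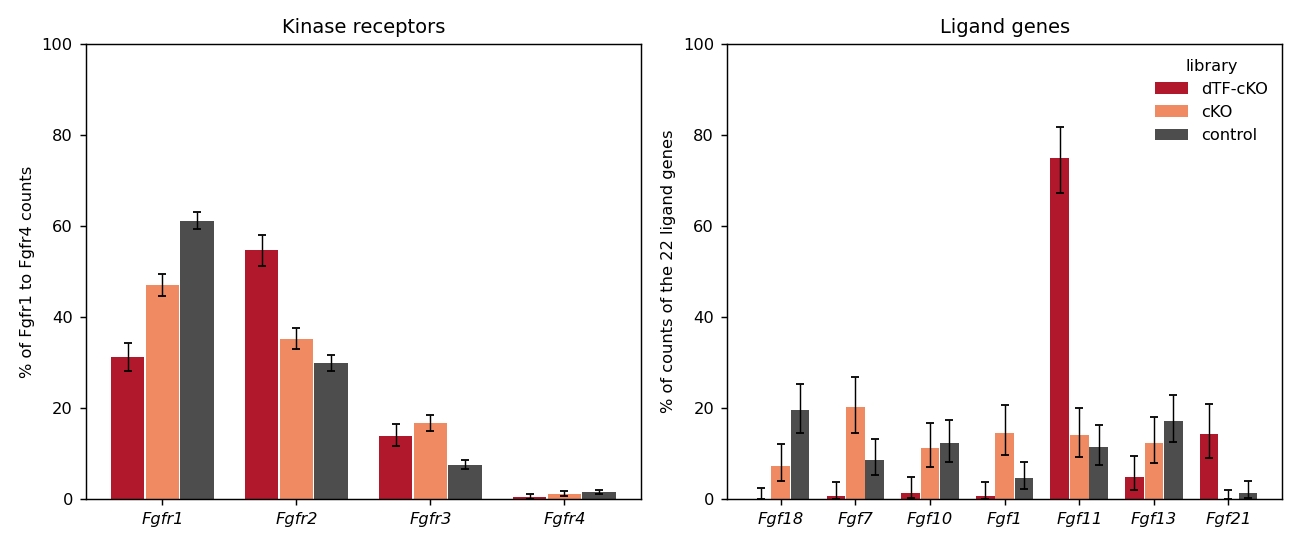
Shares of the 4 kinase receptor genes among their summed counts (left panel) and of 7 ligand genes among the counts of all 22 (right panel), in percent, for the dTF-cKO, cKO and control libraries from left to right; bars are single libraries and whiskers exact 95% binomial intervals. Fgfr2 held 54.6% of receptor counts in the dTF-cKO, where Fgfr1 held 31.1%, and Fgf11 held 75.0% of ligand gene counts there.

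The kinase receptors differed in which gene led. Fgfr1, the main receptor of mesenchyme (chr8:25513654-25575718, plus strand), stood at 95.8 CPM in the dTF-cKO, 294 CPM in the cKO and, in the control, 482 CPM, from 268, 832 and 1722 counts. An antisense transcript (Gm16159) overlaps 164 of its exonic bases. The libraries again stood in the order dTF-cKO, cKO and control, with no overlap of their counting intervals. Fgfr1 was 5.03-fold lower in the dTF-cKO than in control (4.42 to 5.74) and 3.07-fold lower than in the cKO (2.68 to 3.54). Under the stroma scaling these log2 differences were -0.63 and 0.10, so that the direction against the cKO turned. In the cKO Fgfr1 was 1.64-fold lower than in control (1.51 to 1.78), short of the 2-fold rule, and -0.74 on the log2 scale under the stroma scaling.

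Fgfr2, which acts in osteoblast progenitors and, as another splice form, in epithelium, had 471 counts in the dTF-cKO, 623 in the cKO and 840 in the control. Its counts include any from 314 exonic bases shared with Ctbp2 on the same strand, and gene counts do not separate the splice forms. Its levels of 168, 220 and 235 CPM were closer together than those of Fgfr1. The ratio of the dTF-cKO to the control was 0.716 (0.638 to 0.803), with a log2 difference of -0.48 that turned to 1.21 under the stroma scaling, and the ratio of the cKO to the control was 0.938 (0.844 to 1.04). Fgfr3, which restrains growth in cartilage and is also made in osteoblasts, had 120, 294 and 210 counts in the same order. An annotated gene on the opposite strand (G630022F23Rik) overlaps 998 of its exonic bases. Fgfr3 was highest in the cKO, at 104 CPM, 1.77-fold the control level of 58.7 CPM (1.48 to 2.12), and lowest in the dTF-cKO, at 42.9 CPM. Against the cKO it was 2.43-fold lower in the dTF-cKO (1.96 to 3.03), a log2 difference of -1.27 that turned to 0.44 under the stroma scaling. Chondrocyte markers (17 genes, led by Sox9 and Sox5) summed to 763 CPM in the dTF-cKO, 4409 CPM in the cKO and, in the control, 4069 CPM, with Ucma at 0 in the dTF-cKO and Snorc at 0 in the control. The chondrocyte sums hide how most single genes behaved. Of 16 measured, 10 stood at least 2-fold above the control in the cKO and 1 below it, with a median log2 difference of 1.58. Of all measured genes, 9.66% were called higher and 6.78% lower in that comparison. For the dTF-cKO under TMM, 1 of the 16 stood above the control by that margin and 8 below, with a median of -0.96. The part of these markers in the Fgfr3 values was not tested.

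The receptor makeup within a library, which no scaling alters, also differed. Fgfr1 held 31.1% of the counts of the 4 kinase receptors in the dTF-cKO (28.0% to 34.3%), 47.0% in the cKO (44.7% to 49.4%) and 61.2% in the control (59.4% to 63.0%). Fgfr2 held 54.6%, 35.2% and 29.9% in the same order. The number of Fgfr2 counts per Fgfr1 count was 1.76 in the dTF-cKO, 0.749 in the cKO and 0.488 in the control, with an odds ratio of 3.60 for the dTF-cKO against the control (3.03 to 4.29) and 1.54 for the cKO against the control (1.34 to 1.76). Both Cre-carrying libraries thus had more Fgfr2 per Fgfr1 than the control beyond counting error, and both held more epidermal marker RNA, whose part was not tested. Per kilobase of exon, which allows genes to be compared, the order of levels in the control was Fgfr1 at 48.8, Fgfr2 at 22.8, Fgfr3 at 8.21 and Fgfr4 at 3.32 CPM per kb. In the dTF-cKO the order was Fgfr2 at 16.3, Fgfr1 at 9.70, Fgfr3 at 5.99 and Fgfr4 at 0.30 CPM per kb, and in the cKO it was Fgfr1 at 29.8, Fgfr2 at 21.3, Fgfr3 at 14.5 and Fgfr4 at 1.997 CPM per kb.

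Fgfr4, a receptor of muscle progenitors and liver, had 3 counts in the dTF-cKO, 20 in the cKO and 42 in the control. It was 10.96-fold lower in the dTF-cKO than in control (3.50 to 55.3), and -1.55 on the log2 scale under the stroma scaling. The ratio of the cKO to the control was 0.602 (0.335 to 1.05). The skeletal muscle marker sums given above stood in the same order as Fgfr4, and their part in its values was not tested. Fgfrl1, a receptor without a kinase domain whose promoter is printed above, had 19, 88 and 148 counts in the same order. It was 6.10-fold lower in the dTF-cKO than in control (3.77 to 10.4) and 1.33-fold lower in the cKO than in control (1.01 to 1.75). Counts of Fgfrl1 per Fgfr1 count were 0.0709 in the dTF-cKO, 0.106 in the cKO and 0.0859 in the control, and the odds ratio of the dTF-cKO against the control was 0.825 (0.475 to 1.36). With the stroma scaling its log2 difference of the dTF-cKO from the control was -0.89.

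Pdgfra, a receptor tyrosine kinase that marks mesenchymal fibroblasts, was set beside Fgfr1 after its values were seen. It had 119 counts in the dTF-cKO, 621 in the cKO and 1212 in the control. Counts of Fgfr1 per Pdgfra count were 2.25, 1.34 and 1.42 in the same order. The odds ratio was 1.59 for the dTF-cKO against the control (1.26 to 2.01) and 0.943 for the cKO against the control (0.829 to 1.07). Relative to this 1 mesenchymal gene, Fgfr1 was thus higher in the dTF-cKO than in control, whereas its CPM was lower. The 20 dermis and fascia markers, Pdgfra among them, had a median log2 difference of -1.36 between the dTF-cKO and the control. That of Fgfr1 was -2.32, so relative to the median of this list Fgfr1 was lower. The direction therefore depends on the gene chosen.

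**Figure D3:**
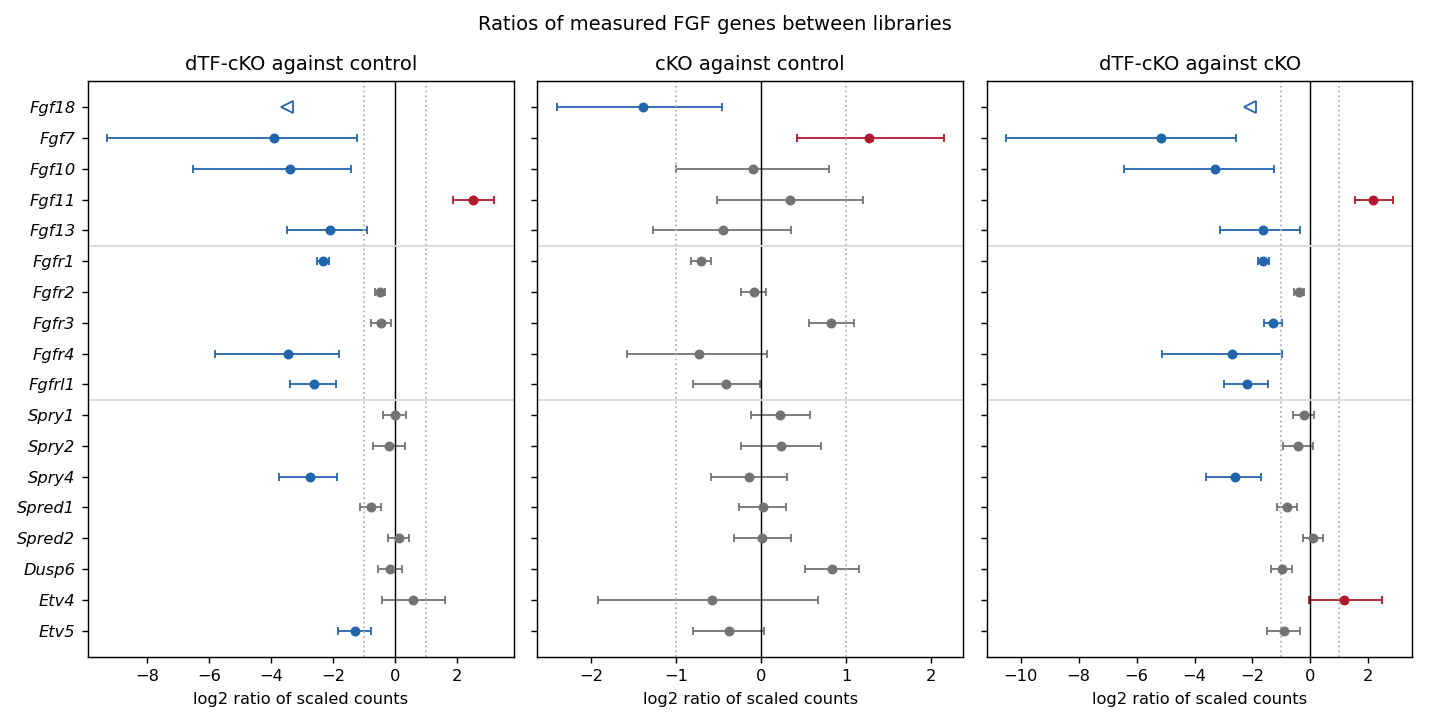
Log2 ratios of scaled counts without a prior count for the 18 measured genes in 3 comparisons (panels, each with its own axis range), with exact 95% counting intervals; dotted lines mark a 2-fold difference, red and blue points are genes at least 2-fold higher and lower by the prior-count rule, and open triangles mark bounds from 0 counts. Fgf11 was 5.67-fold higher and Fgfr1 5.03-fold lower in the dTF-cKO than in control under TMM; the stroma scaling, not drawn here, turned several of the smaller dTF-cKO differences.

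The 8 feedback genes summed to 214 CPM in the dTF-cKO, 320 CPM in the cKO and, in the control, 290 CPM. Per count of the 4 kinase receptors, they had 0.694 counts in the dTF-cKO, 0.511 in the cKO and 0.368 in the control, with an odds ratio of 1.88 for the dTF-cKO against the control (1.66 to 2.14) and 1.39 for the cKO against the control (1.25 to 1.55). Feedback RNA per receptor RNA was thus higher in the dTF-cKO and in the cKO than in control, independent of scaling. This quantity also follows its denominator. Under TMM the receptor sum had ratios to the control of 0.391 (dTF-cKO) and 0.795 (cKO), against 0.737 and 1.10 for the feedback sum. Fgfr1, whose share of the receptor counts ran from 31.1% (dTF-cKO) over 47.0% (cKO) to 61.2% (control), is part of that denominator. Its part in the higher feedback RNA per receptor RNA was not tested. For the dTF-cKO under the stroma scaling, 4 of 6 feedback inhibitor genes and 1 of 2 PEA3 factors were called higher than control. None was called lower, and the medians were 1.49 and 1.25. That scaling called 71.7% of all measured genes higher and 5.98% lower, with a median of 1.71. Both group medians lay below that of all genes. The direction of this group thus depends on the scaling, in a shift shared with all measured genes.

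The 3 Sprouty genes, membrane-associated inhibitors of RAS-ERK signalling, did not differ alike. Spry1 (chr3:37639947-37644598, plus strand) stood at 40.0 CPM in the dTF-cKO, 47.0 CPM in the cKO and, in the control, 40.3 CPM, with a ratio of the dTF-cKO to the control of 0.993 (0.769 to 1.28). An annotated gene on the opposite strand (Gm42922) overlaps 710 exonic bases of Spry1. Spry2 stood at 20.01, 26.9 and 22.9 CPM, with a ratio of 0.872 (0.610 to 1.24). Spry4, the other family member measured, stood at 4.29 CPM in the dTF-cKO, 25.8 CPM in the cKO and, in the control, 28.5 CPM, from 12, 73 and 102 counts. Only the dTF-cKO was low for Spry4, and the ratio of the cKO to the control was 0.905 (0.661 to 1.23). It was 6.65-fold lower in the dTF-cKO than in control (3.65 to 13.3) and 6.02-fold lower than in the cKO (3.25 to 12.2). Counts of Spry4 per count of Spry1 and Spry2 were 0.0714 in the dTF-cKO, 0.349 in the cKO and 0.451 in the control, and the odds ratio of the dTF-cKO against the control was 0.159 (0.0768 to 0.302). Under the stroma scaling the log2 differences from the control were 1.67 for Spry1, 1.47 for Spry2 and -0.997 for Spry4 in the dTF-cKO.

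The Spred genes encode related inhibitors that bring neurofibromin to the membrane. Spred1 had 110 counts in the dTF-cKO, 194 in the cKO and 243 in the control, and Spred2 had 146, 138 and 173. In CPM, Spred1 stood at 39.3 in the dTF-cKO, 68.6 in the cKO and 68.0 in the control, and Spred2 at 52.2, 48.8 and 48.4. The ratio of the dTF-cKO to the control was 0.578 for Spred1 (0.457 to 0.727) and 1.08 for Spred2 (0.859 to 1.35). The balance therefore differed, with 1.33 counts of Spred2 per Spred1 count in the dTF-cKO, 0.711 in the cKO and 0.712 in the control, and an odds ratio of 1.86 for the dTF-cKO against the control (1.34 to 2.59). For the cKO against the control that odds ratio was 0.999 (0.737 to 1.35). With the stroma scaling the Spred1 and Spred2 log2 differences of the dTF-cKO from the control were 0.90 and 1.79.

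Dusp6, the ERK phosphatase (chr10:99263231-99267489, plus strand), stood at 35.7 CPM in the dTF-cKO, 71.1 CPM in the cKO and, in the control, 40.0 CPM. It was highest in the cKO, 1.78-fold the control level (1.43 to 2.22), and in the dTF-cKO its ratio to the control was 0.893 (0.685 to 1.16). The dTF-cKO level was 1.99-fold lower than that of the cKO (1.56 to 2.56), a log2 difference of -0.98 that turned to 0.72 under the stroma scaling. Etv5, a PEA3 factor, stood at 15.01, 28.3 and 36.9 CPM in the same order of libraries. It was 2.46-fold lower in the dTF-cKO than in control (1.73 to 3.57), a log2 difference of -1.26 that turned to 0.39 under the stroma scaling. Counts of Etv5 per Dusp6 count were 0.420 in the dTF-cKO, 0.398 in the cKO and 0.923 in the control, with odds ratios against the control of 0.456 (0.288 to 0.714) for the dTF-cKO and 0.432 (0.299 to 0.621) for the cKO. These 2 readouts of the same pathway were thus balanced alike in the Cre-carrying libraries and unlike in the control.

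Etv4, the other PEA3 factor here, had 20 counts in the dTF-cKO, 9 in the cKO and 17 in the control. It was the second gene at least 2-fold higher in the dTF-cKO than in the cKO, with Fgf11, but its ratio of 2.24 had an interval that included 1 (0.977 to 5.6). Against the control its ratio in the dTF-cKO was 1.5 (0.748 to 3.05). Counts of Etv4 per Etv5 count were 0.476 in the dTF-cKO, 0.113 in the cKO and 0.129 in the control, and the odds ratio of the dTF-cKO against the control was 3.67 (1.66 to 8.23).

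**Figure D4:**
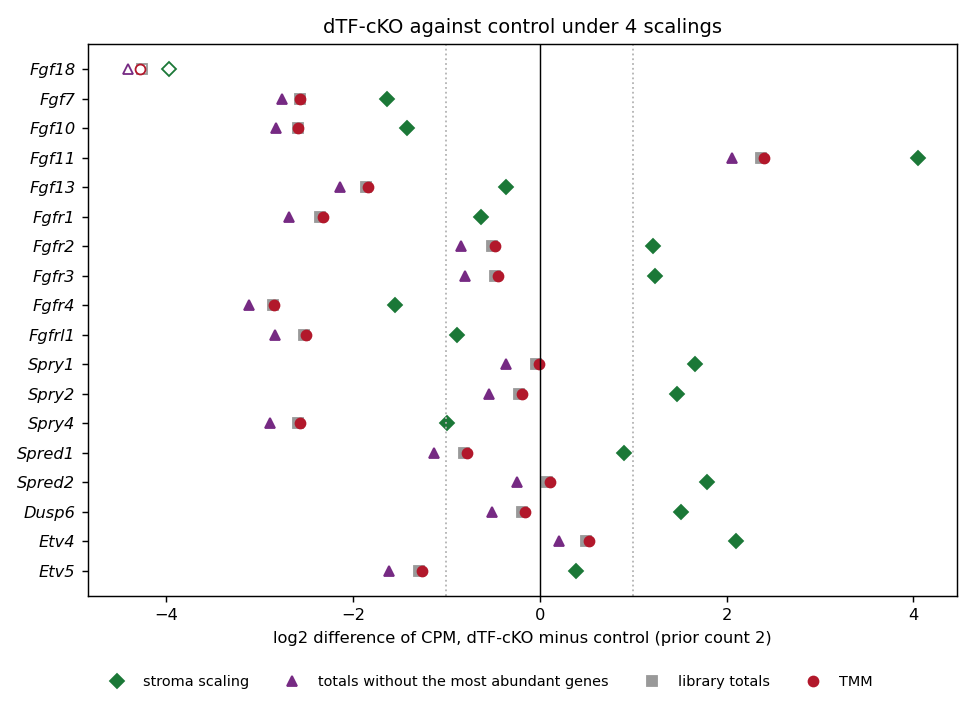
Log2 differences of CPM, dTF-cKO minus control with a prior count of 2, for the 18 measured genes under the stroma scaling, totals without the most abundant genes, library totals and TMM; dotted lines mark a 2-fold difference. Open symbols mark Fgf18, whose 0 counts in the dTF-cKO make its points depend on the prior count. Fgf11 was higher by 2.40 under TMM and 4.05 under the stroma scaling, and Fgfr2, Fgfr3, Spry1, Spry2, Spred1, Dusp6 and Etv5 lay below 0 under TMM and above 0 under the stroma scaling.

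Other genes that shape FGF signalling were taken from 5 lists, each set beside the shares of all measured genes given above. For the dTF-cKO against the control these shares were 20.9% lower and 19.5% higher. Under the stroma scaling they were 5.98% lower and 71.7% higher, and the median of all measured genes was 1.71. Values of the lists under that scaling are to be read beside these. For the cKO against the control they were 6.78% lower and 9.66% higher. Of 8 co-receptors and binding proteins, 5 were measured; in the dTF-cKO 3 of these were at least 2-fold lower than in control and 1 higher, and the median log2 difference was -1.19, which turned to 0.42 under the stroma scaling. Fgfbp1, a carrier protein that releases FGFs from the matrix and is made in epithelia, had 1278 counts in the dTF-cKO, 192 in the cKO and 6 in the control. It was 272-fold higher in the dTF-cKO than in control (125 to 743) and 40.5-fold higher in the cKO than in control (18.3 to 112). Flrt2, a membrane protein of the FLRT family that binds FGF receptors, had 30, 304 and 356 counts and was 9.29-fold lower in the dTF-cKO than in control (6.39 to 14.0). Il17rd, an inhibitor of FGF receptor signalling also called SEF, had 27, 72 and 111 counts and was 3.22-fold lower (2.10 to 5.10). Flrt1 had 21, 55 and 64 counts and was 2.39-fold lower (1.44 to 4.11). In the cKO, Fgfbp1 was the only measured gene of the list that was at least 2-fold different from the control, and Flrt2 had a ratio of 1.08 (0.924 to 1.26). Klb, the co-receptor of FGF21, had at most 1 count in any library.

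Heparan sulphate genes were mostly lower in the dTF-cKO under TMM. Of 30 listed, 26 were measured. In the dTF-cKO 11 were at least 2-fold lower than in control and 4 higher, with a median of -0.76. Under the stroma scaling 11 were higher and 5 lower, with a median of 0.92, against 1.71 for all measured genes. By that scaling 71.7% of all measured genes were higher and 5.98% lower. Gpc1, a glypican, had 192 counts in the dTF-cKO, 757 in the cKO and 2214 in the control, and was 9.03-fold lower in the dTF-cKO (7.79 to 10.5) and 2.31-fold lower in the cKO (2.13 to 2.51) than in control. Sdc3, a syndecan, had 144, 504 and 1284 counts, 6.98-fold lower in the dTF-cKO (5.87 to 8.35) and 2.01-fold lower in the cKO (1.82 to 2.24). The sulphotransferases Hs3st3b1 and Hs3st3a1 were 11.1-fold (4.89 to 31.1) and 8.02-fold lower (2.91 to 30.8) in the dTF-cKO, and Hs3st3a1 was 2.49-fold lower in the cKO (1.31 to 5.07). Extl2, a glycosyltransferase, was 8.11-fold lower in the dTF-cKO (4.37 to 16.7). Extl1, of the same family, went the other way with 399 counts in the dTF-cKO, 46 in the cKO and 5 in the control, 102-fold higher in the dTF-cKO (43.3 to 316) and 11.6-fold higher in the cKO (4.64 to 37.5). In the cKO 3 genes of the list were at least 2-fold lower and 1 higher, with a median of -0.25.

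Receptor adaptors and the RAS-ERK cascade itself were not lower. Of 23 listed, 22 were measured. None was at least 2-fold lower in the dTF-cKO than in control, against 20.9% of all measured genes. The 5 that were at least 2-fold higher made up 22.7% of the 22, near the 19.5% of all measured genes. The median was 0.34. It was -0.02 when the most abundant genes were left out of the totals and 2.03 under the stroma scaling. The 5 were Nras (3.68-fold, 3.18 to 4.27), the exchange factor Sos1 (2.95-fold, 2.31 to 3.78), the ERK kinase gene Map2k1 (2.67-fold, 2.28 to 3.14), the ERK gene Mapk3 (2.65-fold, 2.33 to 3.02) and Hras (2.44-fold, 2.05 to 2.92). In the cKO, Hras was 2.64-fold higher than in control (2.23 to 3.15), none was 2-fold lower, and Mapk3, the most abundant of the list, had a ratio of 1.77 (1.54 to 2.03).

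Other genes known to be induced by RAS-ERK signals were counted in the same way. Of 15 listed, 14 were found and 13 were measured; in the dTF-cKO 9 were at least 2-fold higher than in control and 1 lower, with a median of 1.92 that was 3.60 under the stroma scaling. Fosl1, an AP-1 subunit, had 93 counts in the dTF-cKO, 0 in the cKO and 1 in the control. Dusp5, a nuclear ERK phosphatase, had 279, 32 and 9 counts and was 39.6-fold higher in the dTF-cKO than in control (20.6 to 87.5). Ier3, an early response gene, had 558, 29 and 31 counts and was 23.0-fold higher (16.0 to 34.2), and Fos had 657, 247 and 45 counts and was 18.6-fold higher (13.8 to 25.8). Errfi1, an inhibitor of the EGF receptor family, was 6.63-fold higher (5.27 to 8.42). Ccnd1, cyclin D1, went the other way with 41 counts in the dTF-cKO, 389 in the cKO and 885 in the control, 16.9-fold lower in the dTF-cKO (12.4 to 23.7). In the cKO 4 were at least 2-fold higher and 1 lower than in control, with a median of 0.23. The higher ones were Fos (6.94-fold, 5.04 to 9.76), Dusp5 (4.5-fold, 2.10 to 10.7), Errfi1 (3.45-fold, 2.70 to 4.45) and Egr1 (2.68-fold, 2.13 to 3.38), and Dusp4 was 2.72-fold lower (1.27 to 6.50).

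**Figure D5:**
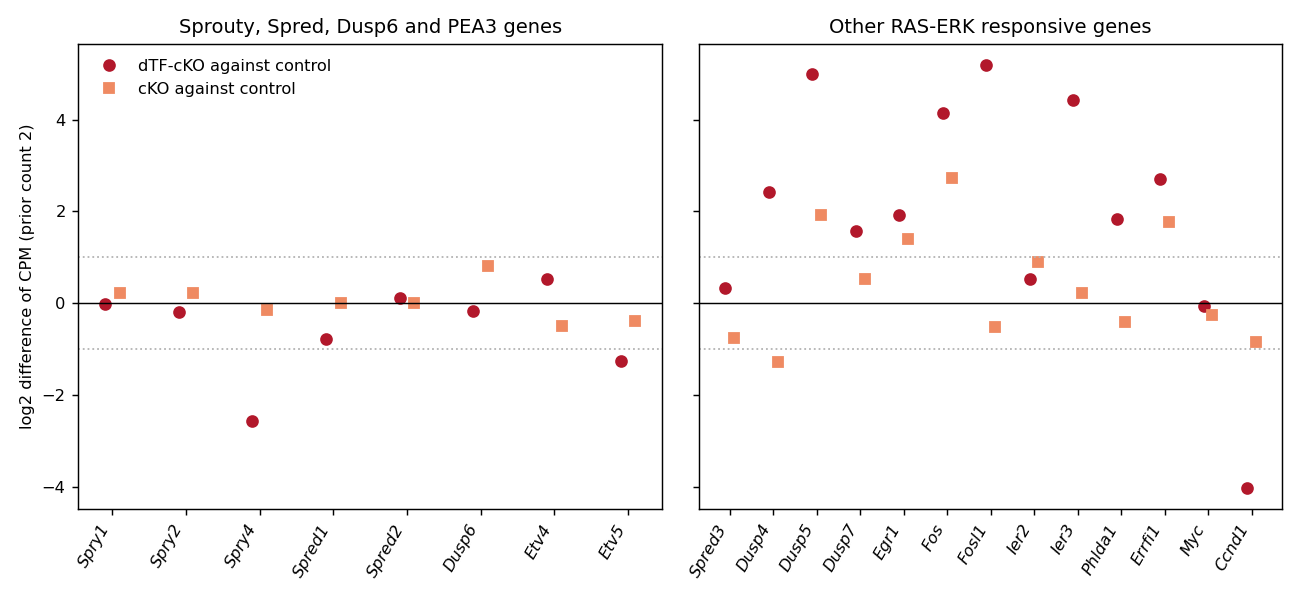
Log2 differences of CPM (prior count 2) from the control for the 8 FGF feedback genes (left) and the 13 measured other RAS-ERK responsive genes (right), with the dTF-cKO as circles and the cKO as squares; dotted lines mark a 2-fold difference, and Fosl1 in the cKO rests on 0 counts. The 13 other genes had a median of 1.92 in the dTF-cKO; under the stroma scaling, not drawn here, the dTF-cKO values of Spry1, Spry2, Spred1, Dusp6 and Etv5 lay above 0.

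Other receptor tyrosine kinases held both lower and higher genes, and all 23 listed were measured. In the dTF-cKO 11 (47.8%) were at least 2-fold lower than in control, against 20.9% of all measured genes. The 5 higher ones (21.7%) were near the 19.5% of all measured genes. The median was -0.88, which turned to 0.77 under the stroma scaling. The lower ones included Pdgfrb of vessel-associated mesenchyme (15.7-fold, 11.5 to 22.1), Kdr (12.4-fold, 7.87 to 20.5) and Tek (10.3-fold, 6.18 to 18.3) of endothelium, Ntrk2 (8.51-fold, 5.01 to 15.55), Pdgfra (7.97-fold, 6.60 to 9.71) and the collagen receptor gene Ddr2 (7.70-fold, 6.07 to 9.90). The 5 higher ones, named after their values were seen, were Epha2 (7.21-fold, 5.97 to 8.76), Erbb3 (5.75-fold, 4.44 to 7.53), Ddr1 (5.32-fold, 4.64 to 6.12), Egfr (5.16-fold, 4.47 to 5.97) and Met (5.03-fold, 3.67 to 7.01), all genes with known expression in epithelia. In the cKO, Erbb3 (4.09-fold, 3.13 to 5.41) and Erbb2 (2.12-fold, 1.83 to 2.47) were higher than in control, and Ror2 (2.11-fold, 1.68 to 2.66) and Ephb2 (2.07-fold, 1.79 to 2.39) lower, with a median of 0.09. That was 8.70% of the list each way, near the 9.66% higher and 6.78% lower of all measured genes. By the same 2-fold rule Fgfr1, 5.03-fold lower in the dTF-cKO than in control, was called lower, and Fgfr2, with a ratio of 0.716, was called neither way. Beside Kdr and Tek, the endothelial markers (17 genes, led by Pecam1 and Cdh5) summed to 379 CPM in the dTF-cKO, 1718 CPM in the cKO and, in the control, 1185 CPM, with none at 0. Their part in the Kdr and Tek values was not tested. Under TMM the epidermal marker sum was highest in the cKO, but its genes did not all follow the sum. Of 19 measured, 4 were at least 2-fold higher in the dTF-cKO than in the cKO and 8 lower, with a median of -0.27. Of all measured genes, 14.5% were higher and 20.5% lower. Under the stroma scaling 10 of the 19 were higher and 6 lower, with a median of 1.44. All genes then had a median of 1.69, with 71.7% higher and 5.48% lower. Of the 5 receptor genes higher in the dTF-cKO than in control, Erbb3 was also at least 2-fold higher in the cKO than in control. Epha2, Ddr1, Egfr and Met were not. The part of epidermal RNA in these values was not tested.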

How the data were processed

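PolyA RNA of primary cells from mouse skeletal mesenchyme was measured by RNA sequencing with an Ion Total RNA-Seq kit, per the labels' protocols, in 1 library for each of 3 genotypes. The authors deposited raw counts per gene symbol, whole numbers that were not normalised, per the file headers. The submitters' processing notes name mm10 as the build; which aligner, counter and annotation were used, and whether counting was stranded, is not given in the sources used here, so reads of overlapping genes on opposite strands cannot be told apart. Library totals ran from 2678457 to 3634819 counts. Another 27 symbols in the tables had been turned into dates, 2 of them repeated, and are not named.

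Counts were scaled with TMM factors (0.963 for the dTF-cKO, 1.06 for the cKO and 0.984 for the control) in edgeR 4.0.16 under R 4.3.3, and a prior count of 2 was added for log2 CPM. A difference was called at 2-fold. Ratios of named genes leave the prior count out and carry exact conditional Clopper-Pearson 95% intervals computed in SciPy 1.17.1; ratios within a library are odds ratios with the same kind of interval. A fold against 0 counts was set against 3 counts. Reads copied by PCR and not marked by molecular identifiers are not separate molecules, and the intervals and floors therefore cover only counting error. Scripts were tested on simulated data. Coordinates and exon lengths of all 35 genes came from GENCODE vM21 on GRCm38, matched by symbol, and promoters from RefSeq. Every measured gene of the set was named, unmeasured ones where a library had more than 3 counts, and from each pathway list up to 6 genes that were at least 2-fold different with an interval excluding 1, or the 2 most abundant where fewer were. Of 285 listed symbols in 12 marker and 5 pathway lists 284 were found, 3 under another name. The values of 1 listed gene are not reported here. The genes and lists were chosen with earlier results of these data known. Alternatives were library totals, DESeq2 1.42.0 size factors, totals without 33 most abundant genes, the stroma scaling, prior counts of 0.5 and 10, no floor or a floor of 20 CPM, rules of 1.5-fold and 3-fold, and intervals that exclude 1.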

Additional observations from a re-analysis of the deposited data

How the results depend on the processing

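Counts and medians below are over the FGF genes that passed the floor. DESeq2 size factors and a prior count of 0.5 gave the same counts and close medians. Shares in brackets are those of all genes, higher then lower. Library totals gave 1 higher gene and 11 lower (11.8%, 23.3%) with a median of -1.25 for the dTF-cKO against the cKO. They gave a median of 0.0081 for the cKO against the control, which turned its sign. Totals without the most abundant genes gave 1 higher and 10 lower (13.2%, 28.0%) with a median of -1.37 for the dTF-cKO against the control. Against the cKO they gave 1 higher and 12 lower (9.25%, 27.0%) with a median of -1.42. The stroma scaling gave 8 higher, 4 lower and a median of 0.64 for the dTF-cKO against the control, and 6 higher, 3 lower and a median of 0.58 against the cKO, where 71.7% of all genes were higher and 5.48% lower. Of 468 single values tried over the scalings and prior counts, 6 called values turned sign, all under the stroma scaling: Etv5 (0.39) and the summed kinase receptors (0.34) for the dTF-cKO against the control, and Fgf13 (0.078), Fgfr1 (0.10), Fgfr3 (0.44) and the summed kinase receptors (0.70) against the cKO. A prior count of 10 gave 0 higher and 0 lower (7.74%, 5.29%) for the cKO against the control. For the dTF-cKO against the cKO it gave 1 higher and 8 lower (12.4%, 17.3%) with a median of -0.94. Without a floor, 2 genes were higher and 2 lower (9.51%, 10.1%) for the cKO against the control, 2 higher and 14 lower (15%, 20.4%) with a median of -0.78 for the dTF-cKO against the control, and 3 higher and 14 lower (13.6%, 20.1%) with a median of -0.79 against the cKO. A floor of 20 CPM gave 0 and 0 (8.48%, 4.08%) with a median of 0.013 for the cKO against the control, 0 higher and 3 lower (21.9%, 15.4%) with a median of -0.46 for the dTF-cKO against the control, and 0 higher and 3 lower (15.1%, 14.7%) with a median of -0.84 against the cKO. For the cKO against the control, the 1.5-fold rule gave 3 higher and 3 lower (18.1%, 13.2%), the 3-fold rule 0 and 0 (5.71%, 3.15%), and intervals that exclude 1 gave 3 and 3 (25.1%, 19.2%). For the dTF-cKO against the cKO, the 3-fold rule gave 1 higher and 7 lower (5.85%, 12.5%), and the interval rule 1 higher and 13 lower (33.9%, 32.5%). The floors and size rules change which genes are counted; the cause of the shifts between scalings was not tested. Depth limits the ligands most: outside Fgf11, no ligand gene reached 50 counts in any library. No paired analysis was possible because each genotype has 1 library. Spread between embryos, sex and the dm allele without Cre were not sampled.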
